A study of Drosophila melanogaster with 5 samples.

Results

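The genes of fatty acid and triglyceride synthesis, lipid droplets and lipolysis described here are ACC, FASN1, FASN2, mino, Gpat4, Lpin, mdy, Lsd-1, Lsd-2 and bmm. They were chosen by name, as all RefSeq transcripts in the count tables whose identifier belongs to 1 of these 10 genes, and each transcript was kept apart. This gave 44 of the 34111 transcripts listed. The flies were wild-type Drosophila melanogaster of the Oregon-R strain, sampled as adult males on day 3 of adult life. The low-background flies (LB-flies) developed from egg to adult in DULB-4900, a tunnel laboratory shielded by rock and built for low background radiation, and gave 3 libraries. The control flies (NB-flies) developed at the same time in a laboratory in the ground building near the tunnel entrance, under natural background radiation, and gave 2 libraries. Each library was made from poly(A)+ RNA of whole males pooled from 1 vial, and all vials of a group stood in 1 laboratory, so that any other difference between the laboratories cannot be told apart from the radiation background.

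In flies, surplus sugar is turned into fatty acids in the cytosol and the fatty acids are joined to a glycerol backbone in steps to form triglyceride, which is stored in lipid droplets, chiefly in the fat body. ACC makes malonyl-CoA, the building block of new fatty acids, and the fatty acid synthases FASN1 and FASN2 extend the chain. mino and Gpat4 are acyltransferases that add the first acyl chain to glycerol-3-phosphate, Lpin removes the phosphate from phosphatidic acid to give diacylglycerol, and mdy, the fly DGAT1, adds the last chain. The perilipins Lsd-1 and Lsd-2 coat the droplet, and bmm, the fly relative of the adipose triglyceride lipase, breaks the stored fat down again.

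The deposited values are reads counted per transcript. The LB libraries held 24790062, 23027411 and 23816650 counted reads, and the NB libraries held 26036113 and 25001792. A read that fell on more than 1 transcript was called ambiguous and entered no count, and this was so for 53.9 to 56.5% of all records in a library. The counts thus hold only reads that could be placed on 1 transcript. In the Ensembl annotation of the same assembly, bases found in a single transcript made up between 3.90% of the exonic bases in Lpin and 49.3% in Lsd-2. The number of transcripts with such bases equalled the number with reads in 8 of the 10 genes, but not in Gpat4 (1 against 2) or Lpin (3 against 2), so that this annotation does not account for every count. For this reason the level of a row is given within that row and not set against the level of another gene. Values are CPM, the reads of a transcript scaled by the TMM-corrected size of the library, and 3 counts in 1 library correspond to 0.115 to 0.136 CPM. Libraries of 1 group differed by more than counting noise.

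Of the 44 transcripts, 22 had no read in any library. They included 9 of the 11 transcripts of Lpin and 4 of the 5 of Lsd-2, and of the other genes, each except FASN1 had 1 or 2 of them. In the Ensembl annotation 8 of the 11 Lpin transcripts and 4 of the 5 of Lsd-2 have no base of their own. Such a transcript can hardly receive a counted read, so having no read does not show that it was not expressed. Another transcript, NM_001299249.1 of ACC, had 1, 2 and 0 reads in LB-flies and no read in NB-flies. The 21 transcripts with at least 10 reads over all libraries were tested, and all 10 genes had at least 1 of them. In 16 transcripts the reads summed to at least 100.

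No transcript of these genes passed edgeR's quasi-likelihood test after Benjamini-Hochberg adjustment over the 17337 transcripts tested, in which the smallest adjusted p of the 21 was 0.534, and no transcript of the whole series passed either (0%). At an unadjusted p under 0.05 there were 4 of the 21, namely 3 transcripts of ACC and 1 of mino, all lower in LB-flies, against 7.57% of all transcripts in either direction and 3.66% lower. This count was 2 without the first LB library, 1 without the second and 5 without the third, and it was 2 without the first NB library and 1 without the second. DESeq2 called 1 of the 21, the main transcript of mino, against 0.438% of all transcripts in either direction and 0.26% lower. Every LB library was below both NB libraries in 5 of the 21 transcripts (13.1% of all transcripts) and above both in 1 (14.8%), and in the remaining 15 the groups overlapped, while 27.9% of all transcripts had groups that did not. The log2 fold change was below 0 in 12 of the 21, against 52.6% of all transcripts, and its median was −0.21, against −0.02 over all transcripts. As whole flies were measured, fewer cells of a type and less RNA per cell cannot be told apart in any of these values.

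**Figure D1:**
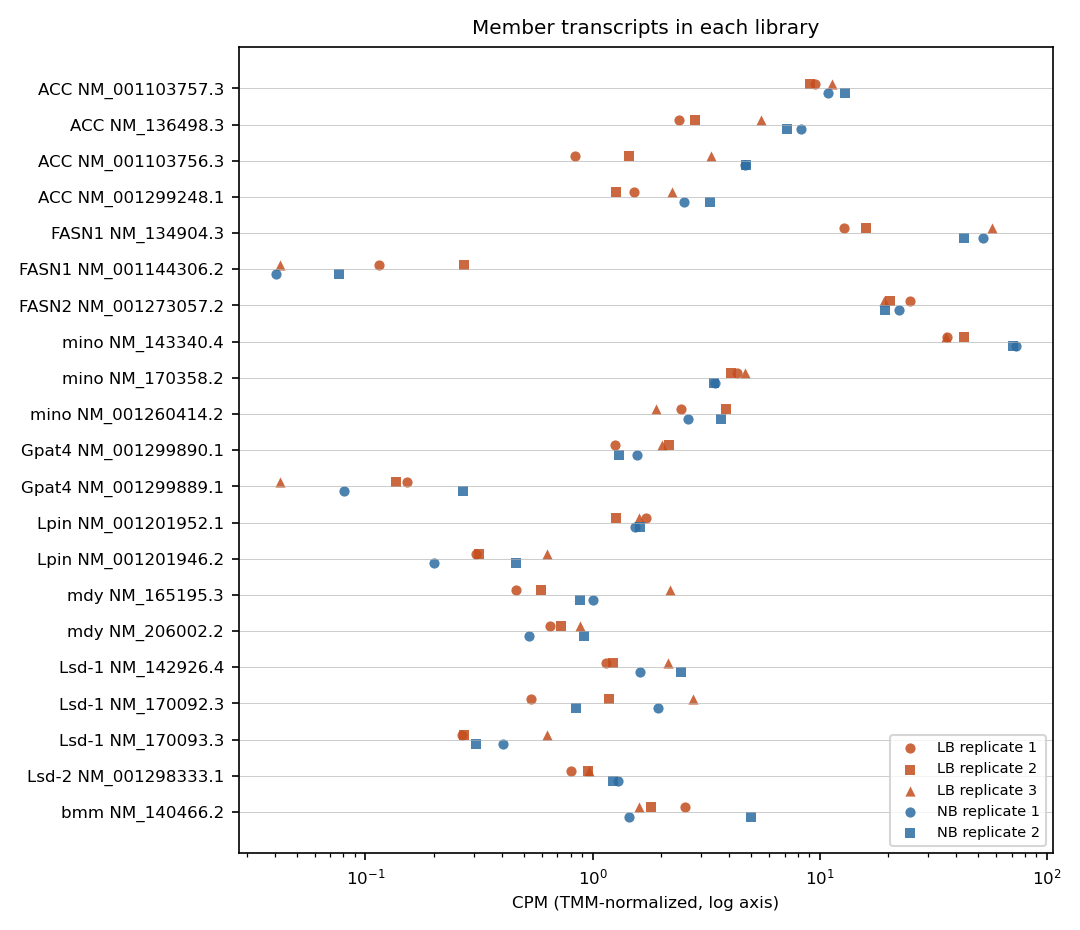
TMM-scaled level of the 21 tested transcripts in each library, in CPM on a log axis. Orange symbols are the 3 LB libraries and blue symbols the 2 NB libraries. The LB symbols of mino NM_143340.4 lie at 35.9 to 43.3 CPM, all below the NB symbols at 70.8 and 73.0 CPM, while those of FASN1 NM_134904.3 lie on both sides of NB.

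**Figure D2:**
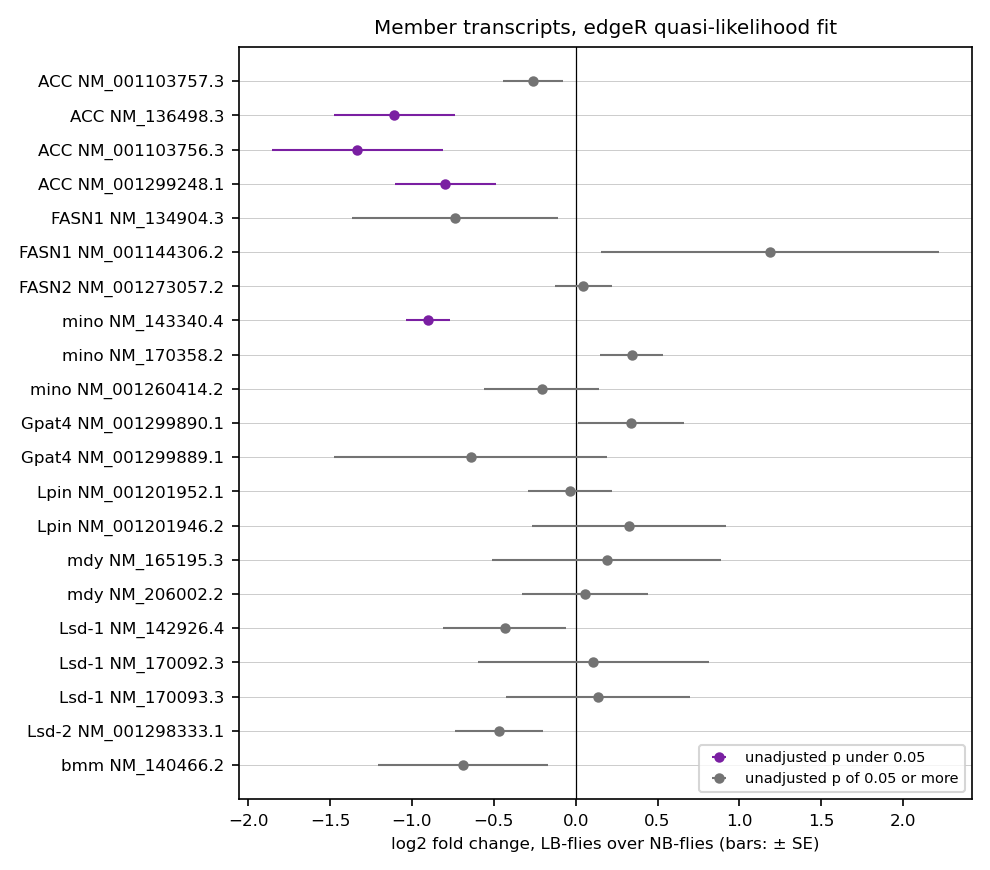
Log2 fold change of LB-flies over NB-flies for the same 21 transcripts, from the edgeR fit, with bars of 1 standard error. The 4 purple points had an unadjusted p under 0.05, and all 4 lie left of 0.

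Fatty acid synthesis was represented by 7 tested transcripts of ACC, FASN1 and FASN2. In 5 of them the log2 fold change was below 0, the median was −0.73, and 3 had an unadjusted p under 0.05. ACC lies on chromosome 2R (positions 7974115 to 7991862, minus strand, Release 6 plus ISO1 MT assembly).

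The ACC transcript with the largest counts, NM_001103757.3, had 9.51, 9.04 and 11.3 CPM in LB-flies, against 10.9 and 12.9 CPM in NB-flies. Its groups overlapped, since the third LB library was above the first NB library, and its log2 fold change was −0.26 (SE 0.18).

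The other 3 tested transcripts of ACC lay lower in every LB library than in either NB library. NM_136498.3 had 2.41, 2.82 and 5.52 CPM in LB-flies, against 8.26 and 7.18 CPM in NB-flies. NM_001103756.3 had 0.840, 1.45 and 3.33 CPM in LB-flies, against 4.67 and 4.76 CPM in NB-flies. In both, the first and second LB libraries were low and the third stood between them and NB. NM_001299248.1 had 1.53, 1.27 and 2.23 CPM in LB-flies, against 2.54 and 3.30 CPM in NB-flies. The log2 fold change was −1.11 (SE 0.37, unadjusted p 0.0234) for NM_136498.3 and −1.33 (SE 0.52, unadjusted p 0.0415) for NM_001103756.3. For NM_001299248.1 it was −0.80 (SE 0.31, unadjusted p 0.0399). The edgeR adjusted p of each of the 3 was 0.625. Without the third LB library the log2 fold change of NM_136498.3 was −1.57 and that of NM_001103756.3 was −2.06.

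FASN1, the fatty acid synthase for which the fat body is best known, lies on chromosome 2L (3056598 to 3068177, plus strand). Its transcript NM_134904.3 had 335, 352 and 1364 reads in LB-flies, against 1299 and 1130 in NB-flies. In CPM this was 12.8, 16.0 and 57.5 in LB-flies, against 52.3 and 43.4 in NB-flies. The LB libraries did not lie together, with the first and second far below NB and the third above both NB libraries. The log2 fold change was −0.73 (SE 0.63, unadjusted p 0.286). It was −0.38 without the first LB library and −0.46 without the second. It was −1.74 without the third. DESeq2 then called this transcript (adjusted p 1.6e-07), ACC NM_136498.3 (0.00111), ACC NM_001103756.3 (0.00165) and mino NM_143340.4 (0.0289). These were 4 of the 21, against 0.611% of all transcripts. The third LB library was the highest of the LB-flies in FASN1 and both ACC transcripts, so leaving it out favours these calls. Without the first or the second LB library DESeq2 called mino NM_143340.4 alone of the 21. A further transcript of FASN1, NM_001144306.2, had 3, 6 and 1 reads in LB-flies, against 1 and 2 in NB-flies, which is too few to tell a difference.

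FASN2, a paralogue of FASN1 known from the oenocytes, is its neighbour on 2L (3043947 to 3056143, plus strand). Its single counted transcript NM_001273057.2 had 24.9, 20.4 and 19.2 CPM in LB-flies, against 22.3 and 19.3 CPM in NB-flies. The groups overlapped, and the log2 fold change was 0.05 (SE 0.17, unadjusted p 0.800). In the Ensembl annotation 1 of the 2 FASN2 transcripts has bases of its own, and 542 of these 545 bases lie in the 3′ UTR.

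The third fatty acid synthase, FASN3, is not among the 10 genes but showed the same order of libraries as FASN1 within LB-flies. It had 2396, 3925 and 10534 reads in LB-flies, against 19056 and 14188 in NB-flies, with a log2 fold change of −1.46 (SE 0.60, unadjusted p 0.0496). All 3 LB libraries were below NB here, which was not so in FASN1.

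Glycerolipid synthesis was represented by 9 tested transcripts of mino, Gpat4, Lpin and mdy. The log2 fold change was below 0 in 4 and above 0 in 5 of them, the median was 0.06, and 1 transcript, of mino, had an unadjusted p under 0.05.

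mino encodes a glycerol-3-phosphate acyltransferase of the mitochondrial type that is also known for a part in the piRNA pathway of the germline. It lies on chromosome 3R (27925191 to 27933077, plus strand). Its main transcript NM_143340.4 had 949, 953 and 852 reads in LB-flies, against 1812 and 1845 in NB-flies. This was 36.2, 43.3 and 35.9 CPM in LB-flies, against 73.0 and 70.8 CPM in NB-flies. The LB libraries lay close together and far below both NB libraries, with means of 38.5 ± 4.17 CPM in LB-flies (SD, n = 3) and 71.9 ± 1.56 CPM in NB-flies (SD, n = 2). The log2 fold change was −0.90 (SE 0.13, unadjusted p 0.000431, edgeR adjusted p 0.534). DESeq2 called it with an adjusted p of 0.00106. This call held without any 1 of the LB libraries, with an adjusted p of 0.00475 to 0.0289, but not without the first NB library (0.337) or the second (0.451), where the log2 fold change from DESeq2 was −0.85 and −0.92. In these last fits the lone NB library is assumed to vary like the LB libraries, since the spread comes from LB-flies alone. DESeq2 also did not call mino NM_143340.4 with any of the replicate blocks (adjusted p 0.0794 to 0.968). In each of these fits the LB library without an NB partner did not bear on the difference between the groups.

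The other counted transcripts of mino had log2 fold changes of smaller size than the main one. NM_170358.2 had 4.32, 4.09 and 4.68 CPM in LB-flies, against 3.46 and 3.41 CPM in NB-flies. It was the only member with every LB library above both NB libraries, and its log2 fold change was 0.34 (SE 0.19, unadjusted p 0.122). NM_001260414.2 had 2.44, 3.86 and 1.90 CPM in LB-flies, against 2.62 and 3.68 CPM in NB-flies, so that its groups overlapped (log2 fold change −0.21, SE 0.35).

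The make-up of the counted mino reads lay apart between the groups, within the limit on strand given below. NM_143340.4 took 84.3, 84.5 and 84.5% of the counted mino reads in LB-flies, against 92.3 and 90.9% in NB-flies. NM_170358.2 took 10.04, 7.98 and 11.0% in LB-flies, against 4.38 and 4.38% in NB-flies, more in every LB library than in either NB library. When each transcript was tested against the other transcripts of its gene with edgeR, the log2 fold change of NM_170358.2 was 1.13 above that of mino as a whole (unadjusted p 0.00421). This was the only 1 of the 18 transcripts of these genes in that test with an unadjusted p under 0.05, against 1.58% of the 5564 transcripts tested, and no transcript of the series passed after adjustment. The difference stayed between 1.02 and 1.26 with other scalings, with the replicates as a block or without any 1 library, with an unadjusted p of 0.00421 to 0.0439.

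On the opposite strand mino overlaps lncRNA:CR45566, asRNA:CR46452, NSD and nenya, which share 1666 of its 3928 exonic bases. Among the bases found in a single mino transcript, they share 118 of 474 in mino-RA and 105 of 111 in mino-RC. In mino-RE they share 96 of 104. The counted transcripts were not matched to these names. Whether strand was used in the counting is not given in the sources used here. Without it, a read on bases shared with a counted partner would be ambiguous and enter no count. No counts of asRNA:CR46452 were read here, so without strand its reads cannot be told apart from those of mino. The make-up of the mino reads carries the same limit. lncRNA:CR45566 had 122, 78 and 66 reads in LB-flies, against 135 and 170 in NB-flies (log2 fold change −0.71, SE 0.27, unadjusted p 0.0360). NSD had a log2 fold change of −0.17 (SE 0.26) and nenya of −0.66 (SE 0.75).

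**Figure D3:**
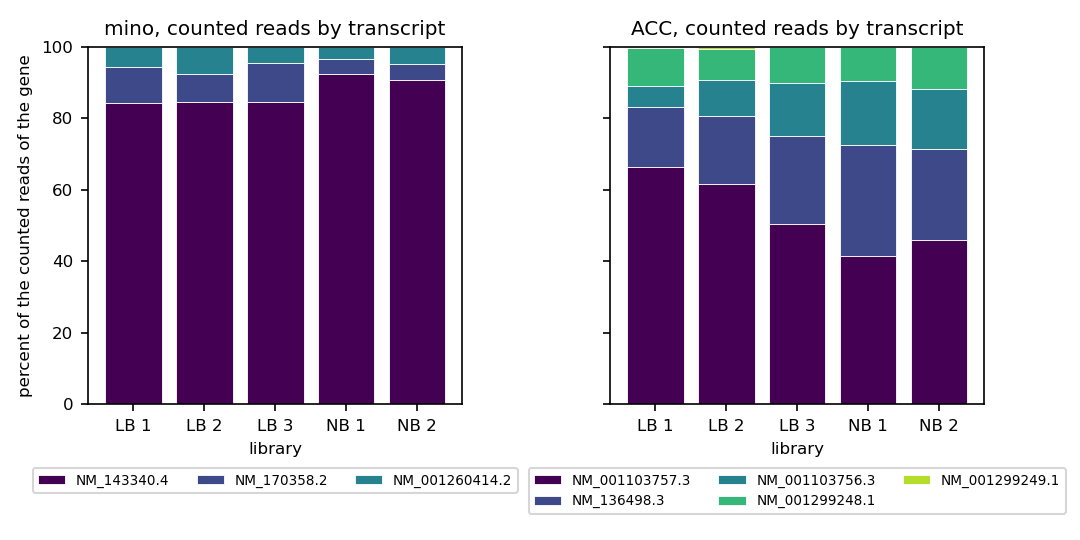
Share of the counted reads of mino (left) and ACC (right) that each transcript took, in percent, in the 3 LB libraries and then the 2 NB libraries. The lowest block of mino, NM_143340.4, ends at 84.3 to 84.5% in LB-flies, against 90.9 and 92.3% in NB-flies, and the lowest block of ACC, NM_001103757.3, at 50.5 to 66.4%, against 41.4 and 45.9%.

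The make-up of the ACC reads also lay apart between the groups, although the test did not pass its threshold. NM_001103757.3 took 66.4, 61.6 and 50.5% of the counted ACC reads in LB-flies, against 41.4 and 45.9% in NB-flies (unadjusted p 0.289). NM_001103756.3 took 5.87, 9.91 and 14.9% in LB-flies, against 17.7 and 16.9% in NB-flies (unadjusted p 0.129). In both, the third LB library was the nearest to NB.

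Gpat4, the acyltransferase of the endoplasmic reticulum, lies on chromosome 2R (24068757 to 24073552, plus strand). NM_001299890.1 had 1.26, 2.18 and 2.02 CPM in LB-flies, against 1.57 and 1.30 CPM in NB-flies. The first LB library was the lowest of all and the second the highest, and the log2 fold change was 0.34 (SE 0.32). NM_001299889.1 had 4, 3 and 1 reads in LB-flies, against 2 and 7 in NB-flies, and its order between the groups cannot be told at this depth.

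Lpin, the phosphatidate phosphatase, lies on 2R (8136986 to 8156654, minus strand) and shares 600 exonic bases with kermit on the same strand, whose reads could not be told apart there. Of its 11 transcripts, NM_001201952.1 had 1.72, 1.27 and 1.60 CPM in LB-flies, against 1.53 and 1.61 CPM in NB-flies. The groups overlapped, with a log2 fold change of −0.03 (SE 0.26). NM_001201946.2 had 8, 7 and 15 reads in LB-flies, against 5 and 12 in NB-flies (log2 fold change 0.33, SE 0.59).

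The final acyltransferase mdy lies on 2L (16816660 to 16826964, plus strand). NM_165195.3 had 12, 13 and 52 reads in LB-flies, against 25 and 23 in NB-flies. As in FASN1, the first and second LB libraries were low and the third was the highest of all 5, and the log2 fold change was 0.19 (SE 0.70). Without the third LB library it was −0.86. NM_206002.2 had 17, 16 and 21 reads in LB-flies, against 13 and 24 in NB-flies, and its LB values lay between the NB values (log2 fold change 0.06, SE 0.38).

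The droplet coat was represented by 4 tested transcripts, of which 2 had a log2 fold change below 0 and none an unadjusted p under 0.05. Lsd-1, the perilipin that opens the droplet to regulated lipolysis, lies on 3R (23763857 to 23766662, plus strand) and shares 144 exonic bases with CG10214 on the opposite strand. NM_142926.4 had 1.15, 1.23 and 2.15 CPM in LB-flies, against 1.61 and 2.46 CPM in NB-flies (log2 fold change −0.43, SE 0.37). NM_170092.3 had 0.535, 1.18 and 2.78 CPM in LB-flies, against 1.93 and 0.844 CPM in NB-flies (log2 fold change 0.11, SE 0.71). Its LB libraries lay on both sides of NB and its NB libraries also differed by more than 1 CPM. NM_170093.3 had 7, 6 and 15 reads in LB-flies, against 10 and 8 in NB-flies. In all 3 transcripts of Lsd-1 the third LB library was the highest of the LB-flies.

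Lsd-2, the perilipin that shields stored fat, lies on chromosome X (15069127 to 15076220, minus strand). NM_001298333.1 was its only transcript with reads, and 1 Ensembl transcript of the gene, Lsd-2-RF, has bases of its own, all 2268 of them in the 3′ UTR. It had 21, 21 and 23 reads in LB-flies, against 32 and 32 in NB-flies. Every LB library was below both NB libraries, and the log2 fold change was −0.47 (SE 0.27, unadjusted p 0.128).

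bmm, the triglyceride lipase of the lipid droplet, lies on 3L (14776496 to 14786412, minus strand). Its single counted transcript NM_140466.2 had 67, 40 and 38 reads in LB-flies, against 36 and 130 in NB-flies. The second NB library was far above all others and the first NB library was the lowest in reads, so that the spread of NB-flies covered that of LB-flies. The log2 fold change was −0.69 (SE 0.52, unadjusted p 0.229), and it was 0.46 without the second NB library.

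When the transcripts of a gene were summed, 6 of the 10 genes had a log2 fold change below 0 and 2 had an unadjusted p under 0.05, against 7.97% of 13963 genes. mino had 1126, 1128 and 1008 reads in LB-flies, against 1963 and 2030 in NB-flies, with a log2 fold change of −0.80 (SE 0.13, unadjusted p 0.000964). DESeq2 called the mino sum (adjusted p 0.00319), against 0.523% of genes, while edgeR did not (0.583) and called no gene. ACC had 375, 323 and 531 reads in LB-flies, against 655 and 734 in NB-flies, with a log2 fold change of −0.69 (SE 0.24, unadjusted p 0.0263). mino, ACC and Lsd-2 were the 3 genes with every LB library below both NB libraries, an order found in 14.6% of all genes. The log2 fold changes of the other genes ran from −0.74 (FASN1) to 0.24 (Gpat4), and those of FASN2 (0.02) and Lpin (0.01) were the nearest to 0.

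The spread within LB-flies was not the same for all genes. The first LB library was the lowest of the 5 libraries in 9 of the 21 transcripts and the third LB library the highest in 6. The second NB library was the highest in 7. mino NM_143340.4 and Lsd-2 were close within each group, while FASN1, mdy NM_165195.3, Lsd-1 NM_170092.3 and bmm spread more widely within a group than their group means lay apart.

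Related genes of the pathway were read from 7 lists with 104 genes, Hsl standing on both the droplet and the lipase list, which gave 163 tested transcripts. Of these, 113 had a log2 fold change below 0 (69.3%, against 52.6% of all transcripts) and the median was −0.22. An unadjusted p under 0.05 was seen in 15 transcripts (9.20%, against 7.57%), all 15 of them lower in LB-flies. After adjustment edgeR called none of them and DESeq2 called 1, Pect.

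The list of fatty acid supply had 28 tested transcripts, 23 lower and 5 higher in LB-flies, and 4 at an unadjusted p under 0.05, all lower. Desat1, the main acyl-CoA desaturase, had log2 fold changes of −0.70 (SE 0.25) in NM_169465.1 and −0.55 (SE 0.20) in NM_169466.1. Its other tested transcripts were at an unadjusted p above 0.05, with log2 fold changes of −0.85 (SE 0.52) in NM_169468.1, −0.33 (SE 0.22) in NM_144474.1 and 0.44 (SE 0.31) in NM_169467.1. Tested against the gene, NM_169467.1 was 0.98 higher on the log2 scale (unadjusted p 0.0120), with groups that overlapped in CPM. AcCoAS, which makes acetyl-CoA from acetate, had −0.37 (SE 0.13), and FASN3 was the fourth.

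Glycerolipid assembly had 41 tested transcripts, 24 lower and 17 higher, and again 4 at an unadjusted p under 0.05, all lower. Pect, which makes CDP-ethanolamine for phosphatidylethanolamine rather than triglyceride, had 405, 312 and 339 reads in LB-flies, against 600 and 616 in NB-flies. Its LB libraries were all below NB, and the log2 fold change was −0.71 (SE 0.14). The adjusted p was 0.0100 by DESeq2 and 0.625 by edgeR. CG1946, an acyltransferase related by sequence to DGAT2, had a log2 fold change of −0.66 (SE 0.18), and nes, a lysophospholipid acyltransferase, had −0.55 (SE 0.18).

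The other lists held few transcripts under the same limit, and each was lower in LB-flies. The lipid droplet proteins had 10 lower and 6 higher of 16. The only 1 under the limit was Jabba, which anchors histones on droplets, with 48, 29 and 29 reads in LB-flies, against 60 and 77 in NB-flies (log2 fold change −0.88, SE 0.28). The lipases had 12 lower and 3 higher of 15. CG6277 (−0.81, SE 0.27), CG6295 (−1.39, SE 0.52) and sxe2 (−0.69, SE 0.27), all lipases by annotation, were under the limit on the log2 scale of the fold change. CG6295 had 132, 293 and 516 reads in LB-flies, against 843 and 937 in NB-flies, with the third LB library again the nearest to NB.

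Lipoprotein transport had 10 lower and 5 higher of 15 transcripts, with Apoltp, the scaffold of the lipid transfer particle, under the limit (log2 fold change −0.45, SE 0.15). Fatty acid oxidation had 13 lower and 3 higher of 16, with Acox57D-d, a peroxisomal rather than mitochondrial oxidase, under the limit (−0.68, SE 0.25). Hormonal and transcriptional control had 23 lower and 12 higher of 35, with the insulin-like peptide Ilp6 under the limit (−0.60, SE 0.19).

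**Figure D4:**
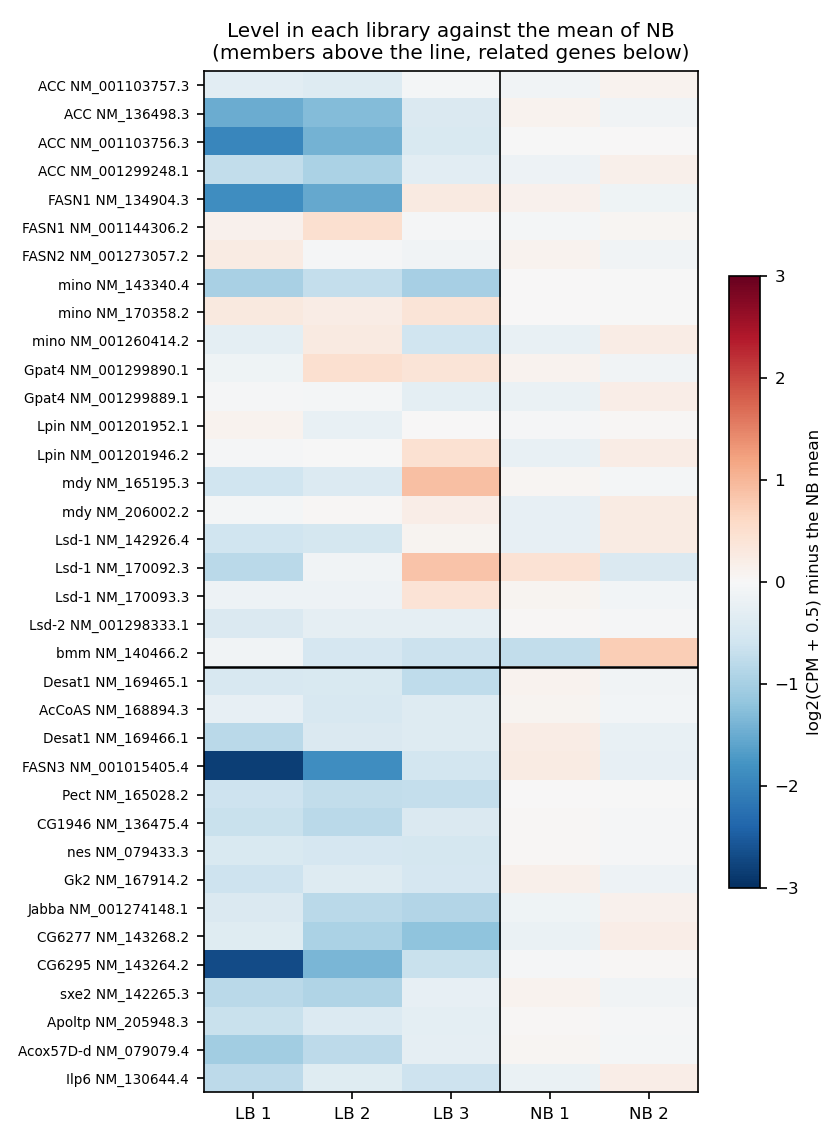
Level of the 21 tested transcripts (above the line) and of the 15 related transcripts with an unadjusted p under 0.05 (below it) in each library, as log2(CPM + 0.5) minus the mean of the NB libraries. Blue is below and red above the NB mean. The first and second LB libraries are darkest blue for FASN1, FASN3, CG6295 and some ACC transcripts, mino NM_143340.4 is blue in all 3 LB libraries, and the rows below the line were chosen by their p and are lower in LB-flies throughout.

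Markers of the tissues that hold these genes were read in the same libraries. The sums below hold only reads placed on 1 transcript, and genes with many such reads weigh most in them. Each sum was compared between libraries and is not the RNA level of a tissue. A gene at 0 had no read that could be placed on 1 transcript. For comparison with the counts below, 52.6% of all transcripts had a log2 fold change below 0. Fat body markers summed to 15.8 to 24.8 CPM in LB-flies, against 21.0 and 22.3 CPM in NB-flies, with 3 of the 9 genes (Lsp1gamma, Fbp1 and Yp1) at 0 in all libraries. By transcript, 5 of the 6 tested fat body markers were higher in LB-flies and 1, apolpp, was lower, with a median log2 fold change of 0.56. Among the 5, Yp2 had 12, 1 and 0 reads in LB-flies, against 1 and 1 in NB-flies. Lsp2 had 0, 11 and 43 reads, against 9 and 17, and Fbp2 had 4, 38 and 53, against 8 and 22. The groups overlapped in each of these, so that the count and the median rest partly on few reads. NLaz and to had every LB library above both NB libraries (14.8% of all transcripts), and NLaz had an unadjusted p of 0.0344 in the edgeR test. Oenocyte markers, of which FASN3 and Desat1 are also on the list of fatty acid supply, were higher in 6 and lower in 7 of 13 tested transcripts. In 5 of the 13, which belong to Desat1, FASN3 and Cpr, every LB library was below both NB libraries (13.1% of all transcripts). In 0 of the 13 every LB library was above both (14.8%). The oenocyte markers summed to 18556 to 22668 CPM in LB-flies, against 18145 and 24834 CPM in NB-flies. Most of this sum was Cyp4g1, at 17873, 21660 and 21055 CPM in LB-flies, against 22998 and 16858 CPM in NB-flies. Midgut markers were lower in 9 of 10 tested transcripts and summed to 11048 to 15618 CPM in LB-flies, against 18727 and 18734 CPM in NB-flies. In 7 of the 10, every LB library was below both NB libraries, and in 0 above both. Testis markers were higher in all 11 tested transcripts and summed to 4652 to 4918 CPM in LB-flies, against 3607 and 4132 CPM in NB-flies. In 7 of the 11, every LB library was above both NB libraries, and in 0 below both. Muscle markers were higher in 9 and lower in 10 of 19 tested transcripts and summed to 15504 CPM in the first LB library and to 29688 and 36886 CPM in the other LB libraries, against 27711 and 23349 CPM in NB-flies. Accessory gland markers summed to 2006 to 6676 CPM in LB-flies, against 3844 and 3937 CPM in NB-flies, with 9 of 9 tested transcripts higher. Neuron markers were lower in 16 of 18 tested transcripts, which belong to 8 genes. In 7 of the 18, every LB library was below both NB libraries (13.1% of all transcripts). The neuron markers summed to 199 to 285 CPM in LB-flies, against 288 and 302 CPM in NB-flies. The midgut, testis and neuron sums thus did not overlap between the groups, as was so for mino NM_143340.4 and 3 ACC transcripts. Of all transcripts taken singly, 27.9% had groups that did not overlap. The neuron sums were nearly the same in the first LB library (285 CPM) and the first NB library (288 CPM). The part of these differences in the values of the lipid genes was not tested.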

How the data were processed

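Adult males were pooled per vial, with 3 LB vials and 2 NB vials, and each vial gave 1 poly(A)+ library. The labels and methods call these separate repeats of a single experiment. The authors trimmed the reads with Trim Galore and cutadapt, aligned them with HISAT2 to BDGP Release 6 (dm6) with repeats masked, and deposited HTSeq counts per RefSeq transcript, not normalized. The summary lines of HTSeq (ambiguous, without feature, not aligned, not unique) were left out of library sizes, and reads counted to a transcript were 26.4 to 28.4% of all records. The strand and overlap settings are not given in the sources used here.

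Identifiers were matched to symbols through the RefSeq gene table (33899 of 34111). Transcripts with at least 10 counts over all libraries (17337) were tested in R 4.3.3 with edgeR 4.0.16 (TMM, quasi-likelihood test, Benjamini-Hochberg adjustment, threshold 0.05), with no covariate. Alternatives were DESeq2 1.42.0 with its default filter (an adjusted p for 12293 transcripts), limma-voom (limma 3.58.1), other scalings and filters, gene sums, replicate blocks and leaving out each library. The test of a transcript against its gene, DESeq2 without each library, with blocks and on gene sums, and the crossed block were chosen after seeing the data. The edgeR and DESeq2 steps were tested on simulated data. Tables were handled in Python 3.11.15 with pandas 2.3.3 and numpy 2.4.6. Where both groups had few reads, counts are given in place of CPM.

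The genes, the lists of related genes and the tissue markers were chosen with earlier results of these data known. All transcripts of the 10 genes are accounted for. From each list of related genes up to 3 genes with the smallest unadjusted p under 0.05 were named. FASN3 was among these, and it was also set beside FASN1 after its values were seen. Of the lists, Etfa and Adipo were not matched, and CdsA, CG9186 and CG9527 were matched by synonym to Cds, sturkopf and Acox3. Coordinates are those of RefSeq on Release 6 plus ISO1 MT, and the bases of each transcript were taken from the Ensembl annotation of the same assembly. p-values measure the spread between vials of 1 experiment.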

Additional observations from a re-analysis of the deposited data

How the results depend on the processing

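edgeR called no transcript of the 10 genes with any alternative. Over all transcripts DESeq2 called 76 and, among the 10 genes, 1, mino NM_143340.4 (log2 fold change −0.90), and edgeR called 5 over all with a replicate block by repeat number and 0 to 1 without 1 library. Fits without an NB library take the spread from LB-flies alone. DESeq2 called 155 over all without the first LB library and 27 without the second NB library, and 4 of the 10 genes' transcripts without the third LB library. The 4 transcripts at an unadjusted p under 0.05 became 2 of 10 genes when transcripts were summed and ranged from 1 to 5 without 1 library.

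Whether the replicate numbers pair vials across the laboratories could not be decided from correlations between libraries that share a number. These were −0.18 and 0.016 by repeat number, and −0.18 and −0.20 by the number in the library name (6886 transcripts). Each library was set against its group mean, so with 2 NB libraries the NB values mirror each other. The correlations are thus not independent, and no conclusion on pairing is drawn from them. An LB library without an NB partner had a block of its own, so it did not bear on the difference between the groups. This was the third LB library by repeat number and the second by library name, crossed or not. The block by repeat number thus came close to the fit without the third LB library (DESeq2 log2 fold change of FASN1 NM_134904.3 −1.73 in both). With a replicate block by library name 2 transcripts had an unadjusted p under 0.05, against 5 by repeat number. DESeq2 called 0 and 1 of the 10 genes' transcripts, with FASN1 NM_134904.3 in place of mino. The DESeq2 log2 fold change of mino NM_143340.4 was then −0.9997 (adjusted p 0.968) by library name and −0.85 (0.748) by repeat number, about as large as without a block. With the numbers crossed the counts were 2 for edgeR and 0 for DESeq2, which again left out mino.

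In 9 of the 21 transcripts, mino NM_143340.4 and the ACC transcripts among them, no alternative changed the sign, and the cause of the changes below was not tested, apart from gene sums, which merge the transcripts. As gene sums the log2 fold change was −0.74 for FASN1 (NM_001144306.2 alone was positive), −0.80 for mino (NM_170358.2), 0.24 for Gpat4 (NM_001299889.1), 0.014 for Lpin (NM_001201952.1) and −0.17 for Lsd-1 (NM_170092.3 and NM_170093.3). With limma-voom it was −0.16 for mdy NM_165195.3 and −0.091 for Lsd-1 NM_170092.3. With the block by repeat number it was −0.025 for Lpin NM_001201946.2, −0.85 and −0.034 for mdy NM_165195.3 and NM_206002.2, and −0.68 and −0.39 for Lsd-1 NM_170092.3 and NM_170093.3, and with the block by library name, crossed or not, 0.079 for Lpin NM_001201952.1. Without 1 library it ranged from −0.074 to 0.15 for FASN2, −0.55 to 0.059 for mino NM_001260414.2, −1.24 to 0.44 for Gpat4 NM_001299889.1, −0.13 to 0.064 and −0.14 to 1.03 for Lpin NM_001201952.1 and NM_001201946.2, −0.86 to 0.57 and −0.29 to 0.52 for mdy NM_165195.3 and NM_206002.2, −0.72 to 0.82 and −0.40 to 0.36 for Lsd-1 NM_170092.3 and NM_170093.3, and −1.32 to 0.46 for bmm. With 2 NB libraries, and few reads in transcripts under 100 counts, differences of this size could not be told from the spread.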
